A study of Mus musculus with 6 samples.

Results

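The Id genes Id1, Id2, Id3 and Id4 and the homeobox genes Msx1 and Msx2 were examined in the apical mesenchyme of mouse mandibular first molars at postnatal day 7.5. These 6 genes were chosen by symbol as genes known to respond to bone morphogenetic protein (BMP) signalling. All 6 were found among the 25899 symbols of the expression table, and all 6 passed the filter on low values that left 14444 genes for testing. RNA was sequenced from 3 control libraries (Bmpr1afl/fl) and 3 mutant libraries (Gli1-CreER;Bmpr1afl/fl). All animals thus carried floxed alleles of Bmpr1a, which encodes a type I BMP receptor, and the mutants also carried CreER, a recombinase activated by tamoxifen, driven by Gli1. The mice were littermates on a mixed C57Bl6/129S6/SvEvTac background. Controls 1 and 2 were of litter 1, as were mutants 1 and 2, while control 3 and mutant 3 were of litter 2. The tamoxifen schedule is not in the labels, nor whether controls received it or how many animals or teeth went into a library. The comparison asks how gene expression in the growing molar differs when Gli1-lineage cells lose this receptor. In the mutants only cells that made CreER, and their descendants, can have lost the receptor, so other cells in the dissected tissue can still signal through it.

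BMP ligands bind paired type I and type II receptors, which phosphorylate Smad1, Smad5 and Smad9. These join Smad4 in the nucleus and act on target genes, among which Id1, Id2 and Id3 are widely used as readouts of BMP activity. Id proteins have a helix-loop-helix domain without a DNA-binding region, so they pair with E proteins and other bHLH factors and keep them from DNA. Id4 is the least similar member of the family and is often regulated apart from the others. Msx1 and Msx2 are homeodomain proteins of tooth mesenchyme. Msx1 is needed for Bmp4 expression in the early tooth bud, and loss of Msx1 stops molar development at that stage.

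In the GENCODE M21 annotation of GRCm38 the 6 genes are short, with union exon lengths from 1160 bases (Id1) to 3849 bases (Id4). Id1 (ENSMUSG00000042745) lies at chr2:152736251-152737410 on the plus strand. Id2 (ENSMUSG00000020644) lies at chr12:25093799-25097140 on the minus strand. Id3 (ENSMUSG00000007872) lies at chr4:136143497-136145755 on the plus strand. Id4 (ENSMUSG00000021379) lies at chr13:48261228-48266026 on the plus strand. Msx1 (ENSMUSG00000048450) lies at chr5:37820485-37824583 on the minus strand, and Msx2 (ENSMUSG00000021469) at chr13:53466884-53473074 on the minus strand. Id4 and Msx2 thus share a chromosome. Exons of Id4 overlap those of 2 genes on the opposite strand, by 82 bases for the antisense gene A330033J07Rik and by 171 bases for the lincRNA Gm49291. Neither is a row of the table, and whether counting used strand is not given in the sources used here, so their reads cannot be told apart from those of Id4 in these stretches.

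The RefSeq table of promoters (GRCm38.p6) held 5 of the 6 genes, Id2, Id3, Id4, Msx1 and Msx2. The 250 bases before the RefSeq start were searched. For Id2, Id3 and Msx2 this window lies inside the GENCODE gene span given above, whose start is farther upstream, and for Id4 and Msx1 it lies outside. The search was made on both strands for the Smad GC box GGCGCC, the Smad box CAGAC, the E-box CANNTG and the TATA motif TATAAA. The upstream stretches that lie outside the annotated exons of the gene itself are shown for Id2, Id4 and Msx1. They set 2 windows with a Smad GC box beside 1 without. They read 5′ to 3′ on the strand of the gene, with the letters GGCGCC in capitals. The Id2 stretch is chr12:25096254-25096342 (89 bases, 162 to 250 bases upstream), the Id4 stretch chr13:48260866-48261115 and the Msx1 stretch chr5:37824586-37824835 (250 bases each). The Id4 stretch lies inside the spans of A330033J07Rik and Gm49291, whose exons were not left out.
Id2: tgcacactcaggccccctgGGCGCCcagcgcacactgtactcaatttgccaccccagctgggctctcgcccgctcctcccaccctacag
Id4: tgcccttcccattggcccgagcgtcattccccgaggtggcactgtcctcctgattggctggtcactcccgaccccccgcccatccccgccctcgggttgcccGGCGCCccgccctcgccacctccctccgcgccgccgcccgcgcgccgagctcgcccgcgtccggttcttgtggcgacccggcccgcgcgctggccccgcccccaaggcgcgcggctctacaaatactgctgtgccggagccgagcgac
Msx1: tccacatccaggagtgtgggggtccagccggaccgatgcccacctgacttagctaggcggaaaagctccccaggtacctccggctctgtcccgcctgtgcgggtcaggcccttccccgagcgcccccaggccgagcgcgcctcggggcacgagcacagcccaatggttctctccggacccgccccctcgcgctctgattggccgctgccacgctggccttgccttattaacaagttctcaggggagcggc
The Smad GC box was found 1 time in Id2, 231 bases upstream, and 1 time in Id4, 148 bases upstream. It was not found in the windows of Id3, Msx1 or Msx2, and 9.59% of 32841 promoter windows of the same length held it. The Smad box was found in the Id3 window, 167 and 68 bases upstream, and in 42.2% of all windows. The E-box, the motif bound by the bHLH partners of Id proteins, was found in the windows of Id2, Msx1 and Msx2 and in 66.2% of all windows. TATAAA was in none of the 5 windows and in 12.4% of all windows. The GC content of the 5 windows was 61.6% to 75.6%, highest in Id4, against a median of 52.4% over all windows. These matches are a description of the letters and not of binding.

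Levels are given as RPM, reads per 1000000 mapped reads, which is not divided by gene length. The libraries held 15916045 to 20609420 reads on genes. Each of the 6 genes had between 1057 reads (Id2 in mutant 3) and 13432 reads (Id3 in control 2) in a library. Counting error was therefore at most 3.08% of a value, while the coefficient of variation over the 6 libraries was 13.8% (Id4) to 43.8% (Msx1). In whole tissue, fewer cells of a type and less RNA per cell cannot be told apart.

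Before the members, the targeted gene, the driver gene and tissue markers were looked at. Each level is that of a whole gene, so recombination of the floxed alleles was not measured. Bmpr1a was at 121, 139 and 149.5 RPM in controls 1 to 3 against 108, 120.2 and 111 RPM in mutants 1 to 3. The groups did not overlap, but control 1 and mutant 2 lay 0.704% apart, within their counting error of 2.34%. The difference was -0.27 on the log2(RPM + 1) scale (SE 0.14, unadjusted p = 0.091, adjusted p = 1.00, limma). Gli1, whose locus drives CreER and which responds to hedgehog signalling, was at 34.9, 30.4 and 63.7 RPM in controls against 28.7, 19.8 and 26.6 RPM in mutants (log2 difference -0.70, SE 0.29, limma, unadjusted p = 0.046, adjusted p = 1.00). All 6 listed markers of dental mesenchyme were detected in every library, with Barx1 the highest, and 3 of the 4 skeletal muscle markers had 0 reads in at least 1 library. Markers of enamel-forming epithelium, which is not mesenchyme, were also present: the 6 genes summed to 2127 to 36531 RPM in controls against 4449 to 46778 RPM in mutants, with Amelx the highest and none at 0. Markers of odontoblasts, the dentin-forming cells, summed to 1764 to 6060 RPM in controls against 479 to 8214 RPM in mutants.

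No Id or Msx gene differed between genotypes beyond the spread between libraries. In the limma test, 0 of the 6 genes passed an adjusted p under 0.05, as for all tested genes, of which 0.00% passed. At an unadjusted p under 0.05, 0 of the 6 passed, against 1.05% of all tested genes. The ranges of the groups overlapped for all 6, whereas 2.64% of tested genes had groups that did not overlap. Here and in the counts that follow, a lower or higher mean is a mean of log2(RPM + 1) values. It was lower in mutants for Id1, Id2, Id3 and Msx2 and higher for Id4. For Msx1 it was higher by 0.05, while the mean RPM was slightly lower in mutants. A mean lower in mutants was found for 54.4% of tested genes. The median difference of the 6 genes was -0.31, beside -0.01 over all tested genes.

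**Figure D1:**
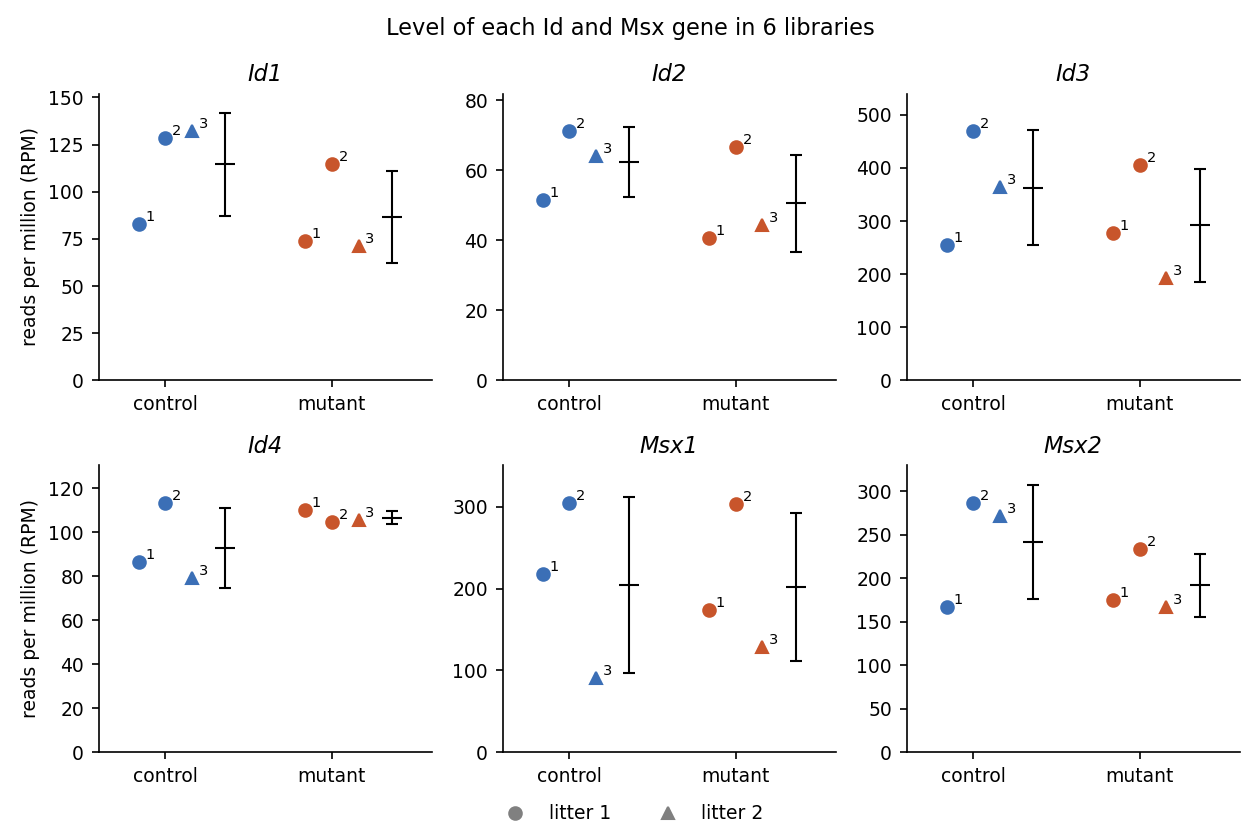
Levels of the 6 genes (y axes, RPM) in control and mutant libraries (x axes), with bars for the group mean and SD and marker shapes for the litter, on y axes that start at 0. The groups overlap in every panel, and the 2 litter 2 libraries of Msx1 lie at 91.2 and 129 RPM, under all 4 of litter 1.

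Id1, the most commonly used BMP reporter gene of the family, was at 82.9, 128 and 132 RPM in controls 1 to 3 against 73.9, 115 and 71.1 RPM in mutants 1 to 3. Controls 2 and 3 were the highest, mutant 2 lay between them and control 1, and mutants 1 and 3 were the lowest. The means were 114.5 ± 27.4 RPM in controls against 86.5 ± 24.3 RPM in mutants (SD, n = 3 each). The log2 difference was -0.40 (SE 0.25, 95% interval -1.003 to 0.19, limma, unadjusted p = 0.155, adjusted p = 1.00). The interval holds both no difference and a mean 2-fold lower.

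Id2, which acts in many developing tissues and is less strictly tied to BMP than Id1, was at 51.6, 71.2 and 64.2 RPM in controls against 40.8, 66.5 and 44.3 RPM in mutants. Mutant 2 again lay among the controls, and mutants 1 and 3 lay under all of them. The means were 62.4 ± 9.93 and 50.5 ± 14.0 RPM. The log2 difference was -0.32 (SE 0.22, 95% interval -0.83 to 0.19, limma, unadjusted p = 0.186).

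Id3, a BMP target often expressed together with Id1, was at 254, 470 and 365 RPM in controls against 278, 405 and 193 RPM in mutants. Only mutant 3 lay under every control. The means were 363 ± 108 and 292 ± 107 RPM. The log2 difference was -0.33 (SE 0.33, 95% interval -1.11 to 0.44, limma, unadjusted p = 0.346).

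Id4 stood apart from the other Id genes in direction and in spread. It was at 86.5, 113 and 79.0 RPM in controls against 110.0, 104 and 105 RPM in mutants. The mutant libraries lay close together, inside the range of the controls, with means of 93.0 ± 18.1 RPM in controls against 107 ± 2.95 RPM in mutants. The log2 difference was 0.21 (SE 0.16, 95% interval -0.17 to 0.59, limma, unadjusted p = 0.230).

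Msx1 varied the most over the libraries, with a 3.35-fold range, and its group means were close. It was at 218, 305 and 91.2 RPM in controls against 174, 304 and 129 RPM in mutants. The means were 205 ± 108 and 202 ± 90.9 RPM. The log2 difference was 0.05 (SE 0.49, 95% interval -1.09 to 1.20, limma, unadjusted p = 0.917), and its sign changed when control 3 (-0.44) or mutant 2 (-0.29) was left out, within litter 1 (-0.17) and under median-of-ratios scaling (-0.01). The interval is too wide to say that Msx1 was alike in the genotypes.

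Msx2, which is also known in bone and enamel organ, followed the pattern of Id1. It was at 167, 287 and 271 RPM in controls against 174, 234 and 167 RPM in mutants. Controls 2 and 3 were the highest, and control 1 lay with mutants 1 and 3. The means were 242 ± 65.3 and 192 ± 36.5 RPM. The log2 difference was -0.31 (SE 0.25, 95% interval -0.90 to 0.28, limma, unadjusted p = 0.255). The third gene of this family, Msx3, had 2 reads in control 1 and 0 in the other 5 libraries.

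**Figure D2:**
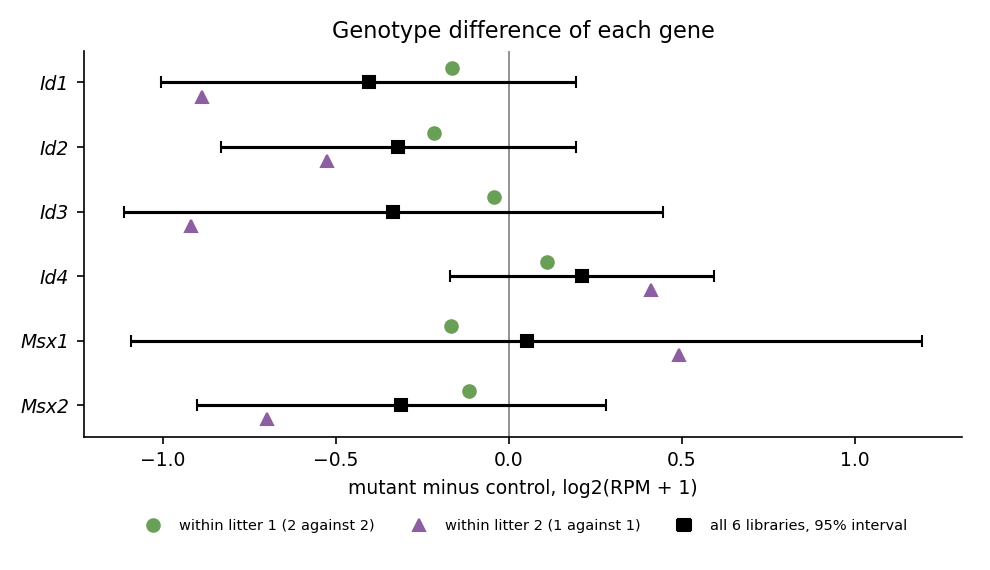
Mutant minus control difference, as log2(RPM + 1) (x axis), for each of the 6 genes (y axis), with points for the estimate over all libraries and bars for its 95% interval, and smaller marks for the difference within each litter. All 6 intervals cross 0, and Id1, Id2, Id3 and Msx2 lie below 0 in both litters.

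The unadjusted calls depended on single libraries. Without control 1 the difference of Id1 was -0.62 (limma, unadjusted p = 0.0436) and that of Msx2 was -0.56 (limma, unadjusted p = 0.0443), and neither gene's groups overlapped. Of all tested genes, 2.25% then had an unadjusted p under 0.05 and 9.23% did not overlap. Without mutant 2 the difference of Id1 was -0.62 (limma, unadjusted p = 0.0399) and that of Id2 was -0.53 (limma, unadjusted p = 0.0298), and again neither gene's groups overlapped. The shares over all tested genes were 1.81% and 9.46%. Without control 2 the groups of Id4 did not overlap, with mutants higher, and 5.88% of tested genes did not overlap. No adjusted p of any of the 6 genes was under 0.05 with any library left out.

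Id1, Id2, Id3 and Msx2 were lower in mutants within each litter, and 18.1% of all tested genes were lower in both litters. Within litter 1, with 2 libraries per genotype, the differences of Id1, Id2, Id3 and Msx2 were -0.16, -0.22, -0.04 and -0.12 on the log2 scale. Within litter 2, with 1 library per genotype and so no test of its own, they were -0.89, -0.53, -0.92 and -0.70. Of all tested genes 67.7% were lower in mutants in litter 1, the direction of these 4 genes, and 32.0% in litter 2. Id4 was higher in mutants in both litters, by 0.11 and 0.41. Msx1 was lower in litter 1 (-0.17) and higher in litter 2 (0.49). The difference between litters in the genotype effect was tested as an interaction in limma. It had an unadjusted p under 0.05 for 0 of the 6 genes, beside 5.06% of all tested genes. It was -0.72 for Id1, -0.87 for Id3, -0.58 for Msx2 and 0.66 for Msx1 (limma, adjusted p = 0.910 for each of these).

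Between litters, with genotype in the model, Msx1 was the member with the largest difference. Its litter 2 libraries, control 3 at 91.2 RPM and mutant 3 at 129 RPM, lay under all 4 litter 1 libraries at 174 to 305 RPM. The difference, litter 2 minus litter 1, was -1.16 (SE 0.29, limma, unadjusted p = 0.0057, adjusted p = 0.113). Litter thus met an unadjusted p under 0.05 for 1 of the 6 genes, beside 20.9% of all tested genes. At an adjusted p under 0.05 it was called for 0 of the 6, beside 0.872% of all tested genes. With mutant 1 left out the difference of Msx1 was -1.38 and its adjusted p was 0.0482 (limma). The other 5 genes had litter differences from -0.36 (Id3, unadjusted p = 0.318, limma) to 0.02 (Msx2, unadjusted p = 0.949). Litter, day and dissection cannot be told apart, and litter 2 rests on 2 libraries. The libraries with the lowest Msx1, control 3, mutant 3 and mutant 1, were also those with the highest enamel epithelium sums (36531, 17015 and 46778 RPM, against 2127 to 4449 RPM in the others), and the part of this in the Msx1 values was not tested. These sums are carried mainly by Amelx and Ambn, and in mutant 3 Mmp20 (37.0 RPM) and Klk4 (4.02 RPM) were at their lowest of the 6 libraries. The odontoblast sums, carried mainly by Dspp, split the litters as Msx1 did, at 1764 and 479 RPM in litter 2 and 5063 to 8214 RPM in litter 1. Of the 5 odontoblast markers Dspp, Phex and Nes were lower in litter 2, whereas Dmp1 and Smpd3 had differences of 1.80 and 1.1496 in the other direction (limma, unadjusted p = 0.0447 and 0.0066). Their part was not tested either. With the mean level of the enamel epithelium list as a covariate the genotype difference of Msx1 was 0.25.

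Id1, Id2, Id3 and Msx2 shared their low and high libraries. For each of these 4 genes the lower 3 libraries were control 1, mutant 1 and mutant 3, and the upper 3 were control 2, control 3 and mutant 2. This sharing was noticed after the values were seen. The lowest of the upper libraries exceeded the highest of the lower ones 1.38-fold for Id1, 1.34-fold for Msx2, 1.31-fold for Id3 and 1.24-fold for Id2. Both genotypes and both litters are found in each set, and no label separates the sets. For Id2 and Id3 this gap was smaller than the spread inside the lower 3 libraries (1.27-fold and 1.44-fold), and for Id3 the widest gap set mutant 3 alone apart. Because the libraries lay in separate sets for Id1 and Msx2, no correlation between the 6 genes is given. Id4 and Msx1 did not follow this order: Id4 was lowest in control 3 and control 1, and Msx1 was lowest in control 3 and mutant 3.

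**Figure D3:**
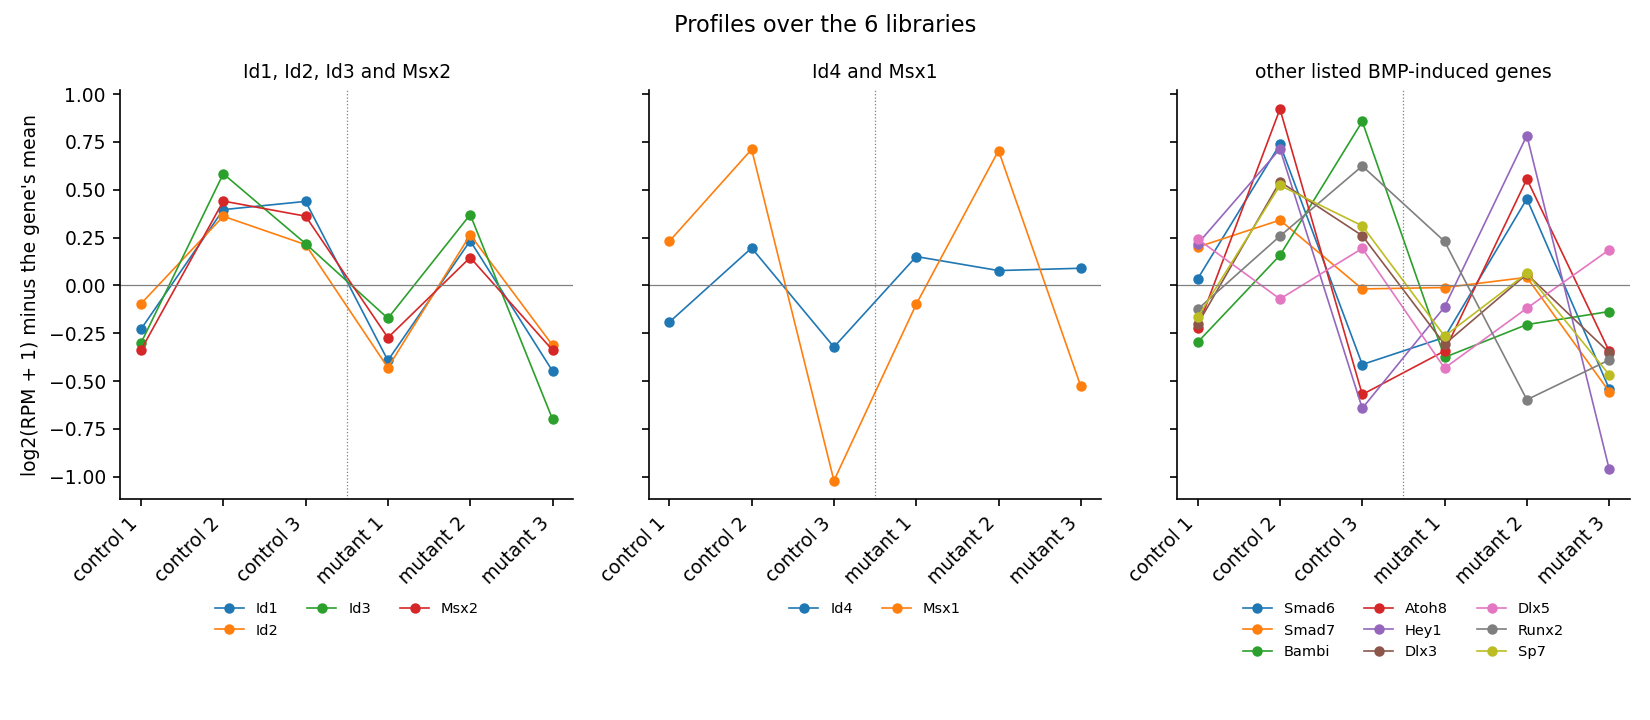
Level of each gene in each library relative to its own mean (y axis, log2(RPM + 1) minus the mean of the gene) for libraries in order (x axis), with Id1, Id2, Id3 and Msx2 on the left, Id4 and Msx1 in the middle and 9 other listed BMP-induced genes on the right. The 4 genes on the left are above their means in control 2, control 3 and mutant 2 and below them in the other libraries, while the genes on the right do not share a single order.

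Other cell types varied over the libraries as well. The summed level of 6 endothelial markers, the cells in which Id1 and Id3 are known to be active, was 274 to 354 RPM in controls against 228 to 331 RPM in mutants, a 1.55-fold range in all, with none at 0. Its lowest library, mutant 1, was among the low libraries of the 4 genes, and its highest, control 1, was too. With the mean endothelial level as a covariate the genotype differences were -0.39 for Id1, -0.26 for Id2, -0.33 for Id3 and -0.32 for Msx2. The sum of 6 osteoblast markers was 1026 to 2064 RPM in controls against 524 to 1978 RPM in mutants, with control 1 and mutant 3 lowest, and the mean of log2 values was lower in mutants for all 6. Ibsp, which encodes bone sialoprotein, was at 85.1 ± 61.5 and 26.4 ± 3.22 RPM in controls and mutants, with groups that did not overlap (log2 difference -1.41, limma, unadjusted p = 0.0195). Spp1, which encodes osteopontin, was at 86.5 ± 77.6 and 4.39 ± 0.939 RPM, with control 1 inside the mutant range (log2 difference -3.05, limma, unadjusted p = 0.0312). The mean RPM was higher in mutants for 2 of the 6, Bglap (482 and 540 RPM in controls and mutants) and Bglap2 (297 and 331 RPM). The mean of log2 values was also lower for all 5 odontoblast markers, while the mean RPM was higher in mutants for Dspp (3231 and 3876 RPM) and Phex (333 and 417 RPM). All 4 general epithelium markers had higher means on both scales. The 6 dental mesenchyme markers had 5 lower means in mutants and a median difference of -0.30, close to that of the Id and Msx genes. All of them but Prrx1 are also on the lists of Id or Msx partners, so these counts share genes. Mural markers, of pericytes and smooth muscle, summed to 281 to 619 RPM, and macrophage and osteoclast markers to 212 to 371 RPM. Both sums were lowest in control 3, mutant 1 and mutant 3, the lower 3 libraries of Msx1. The erythroid sum was 1984 RPM in control 3 and 177 to 610.3 RPM in the others. The part of these cell types in the differences of the 6 genes was not tested beyond the covariates named.

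Per length, Id3 was the most abundant of the 6 genes. Divided by union exon length, the level in controls was 203 ± 60.2 RPM per kb for Id3, 98.7 ± 23.7 for Id1, 73.7 ± 19.9 for Msx2, 66.2 ± 34.7 for Msx1, 25.6 ± 4.07 for Id2 and 24.2 ± 4.71 for Id4. In mutants the same levels were 163 ± 59.7 for Id3, 74.6 ± 20.96 for Id1, 58.4 ± 11.1 for Msx2, 65.2 ± 29.4 for Msx1, 20.7 ± 5.73 for Id2 and 27.7 ± 0.767 RPM per kb for Id4. On this scale Id3 was first and Id1 was second in all 6 libraries. Msx1 and Msx2 exchanged places between libraries, with Msx2 ahead in control 3 and mutant 3, and so did Id2 and Id4. Msx2 and Msx1 differed by less than either SD in both groups, and so did Id2 and Id4 in controls. In mutants Id4 exceeded Id2 by more than both SDs together by union exon length. With the longest transcript it did not (27.7 ± 0.767 for Id4 and 25.7 ± 7.10 RPM per kb for Id2). Id1 exceeded Msx2 by slightly more than the larger of their SDs in controls and by less than it in mutants, and was ahead of it in every library. The order below Id3 also depended on the length used. With the longest transcript Id3 stayed first by the mean of all 6 libraries, followed by Msx1, Msx2, Id1, Id2 and Id4.

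The genes whose profile over the 6 libraries was most like that of each member were sought among the 11815 genes that averaged 5 RPM or more, by Pearson r of log2(RPM + 1). These values describe 6 libraries that share litters and dissections, and a best match among so many genes is high by choice. For Id1 and Msx2, whose libraries lay in separate sets, r can be high through that split alone. The 3 most like Id1 were Arhgef3 (r = 0.985), Pcbp3 (0.981) and 2410022L05Rik (0.980). For Id2 they were Galm (r = 0.991), Stx5a (0.991) and Plvap (0.982), the last an endothelial gene. For Id3 they were Dmpk (r = 0.986), Fam70a (0.985) and Lman1 (0.980). For Msx2 they were Cdk5rap3 (r = 0.985), 2410022L05Rik (0.981) and Tm7sf2 (0.978), so that 2410022L05Rik was named for both Id1 and Msx2. Id4 had the least close matches, Scoc (r = 0.945), Cx3cl1 (0.930) and Aifm2 (0.928). Msx1 was matched closely by Ikbkg, Evi5 and A930001N09Rik (r = 0.997 each). All 3 were lowest in control 3, at 33.1, 45.9 and 19.0 RPM. Their highest values were 40.3 RPM (control 2), 82.0 RPM (mutant 2) and 58.1 RPM (control 2). Pearson r does not take the size of a change into account, so a gene that varies little can match closely.

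Among the genes upstream of Id and Msx, the listed ligands had 4 lower and 4 higher means in mutants of 8 tested, none with an unadjusted p under 0.05, and a median difference of 0.16. Bmp4, the ligand tied to Msx1 in tooth mesenchyme, was at 66.9 ± 31.2 RPM in controls against 80.2 ± 9.002 RPM in mutants (log2 difference 0.35, limma, unadjusted p = 0.286). Gdf6, a ligand of joints and skull, had the largest difference (-2.00, limma, unadjusted p = 0.0603), and control 3 at 36.1 RPM stood over the other libraries at 0.699 to 6.33 RPM. Gdf5, a joint ligand, had a difference of 0.98 (limma, unadjusted p = 0.122). Of 6 tested receptors 3 were lower and 3 higher (median -0.03), and only Bmpr1a had groups that did not overlap. Bmpr1b did not pass the filter. The 4 Smads that carry the signal had 2 lower and 2 higher means (median -0.02), with Smad9 at -0.29 and Smad4 at -0.06, and none had an unadjusted p under 0.05.

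The 9 inhibitors of the pathway had 6 lower and 3 higher means (median -0.24) and none with an unadjusted p under 0.05. Fst, which encodes the secreted antagonist follistatin, was at 18.2 ± 11.8 RPM in controls against 33.5 ± 13.1 RPM in mutants (log2 difference 1.05, limma, unadjusted p = 0.125). Grem1, which encodes the BMP antagonist gremlin, was low, at 1.95 ± 0.711 and 1.01 ± 0.787 RPM (log2 difference -0.60, limma, unadjusted p = 0.113).

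Of 9 other genes that BMP signalling is known to induce, all 9 had lower means in mutants, 0 of 9 had an unadjusted p under 0.05 and 0 of 9 had groups that did not overlap. Of the 9, 6 were lower without control 2 (Smad6, Atoh8 and Hey1 were not), 7 without mutant 3 and 8 without mutant 1, and all 9 were lower under each scaling tried. With the enamel epithelium or the endothelium level as a covariate 8 of 9 were lower, all but Atoh8. Without control 1 an unadjusted p under 0.05 was met by 4 of 9 (Bambi, Dlx3, Runx2 and Sp7; limma), beside 2.25% of all tested genes. It was met by 1 of 9 with litter as a block (Smad7), beside 293 of the 14444 tested genes, and without mutant 2 (Sp7), beside 261. Runx2 alone met it with the enamel epithelium covariate, with the endothelium covariate and without mutant 1, beside 222, 157 and 68 of the tested genes. Their median difference was -0.35, with a range from -0.50 (Runx2, the master regulator of osteoblasts) to -0.09 (Atoh8, a bHLH factor). They were lower in 9 of 9 cases within litter 1 and in 8 of 9 within litter 2, where 67.7% and 32.0% of all tested genes were lower. Bambi, a decoy receptor, was at 205, 282 and 458 RPM in controls against 194, 219 and 229.5 RPM in mutants (log2 difference -0.48, limma, unadjusted p = 0.140). Control 1 lay inside the mutant range. Smad6, Smad7 and Bambi are counted here and among the inhibitors, Dlx3, Dlx5 and Runx2 also among the Msx partners, Hey1 also among the Id partners and Sp7 also among the osteoblast markers, so the counts of these lists share genes.

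Some of these genes ordered the libraries as the Id genes or Msx1 did, which was noticed after their values were seen. Dlx3, a homeobox gene of tooth and bone, was at 152, 255 and 210 RPM in controls 1 to 3 against 141, 182 and 137 RPM in mutants 1 to 3. Sp7, an osteoblast factor downstream of Runx2, was at 77.8, 126 and 109 RPM in controls against 72.5, 91.3 and 62.9 RPM in mutants. Both were thus low in control 1, mutant 1 and mutant 3, as Id1, Id2, Id3 and Msx2 were. Smad6, an inhibitory Smad induced by BMP, was at 155, 254 and 114 RPM in controls against 126, 208 and 104 RPM in mutants, high in control 2 and mutant 2 as Msx1 was.

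**Figure D4:**
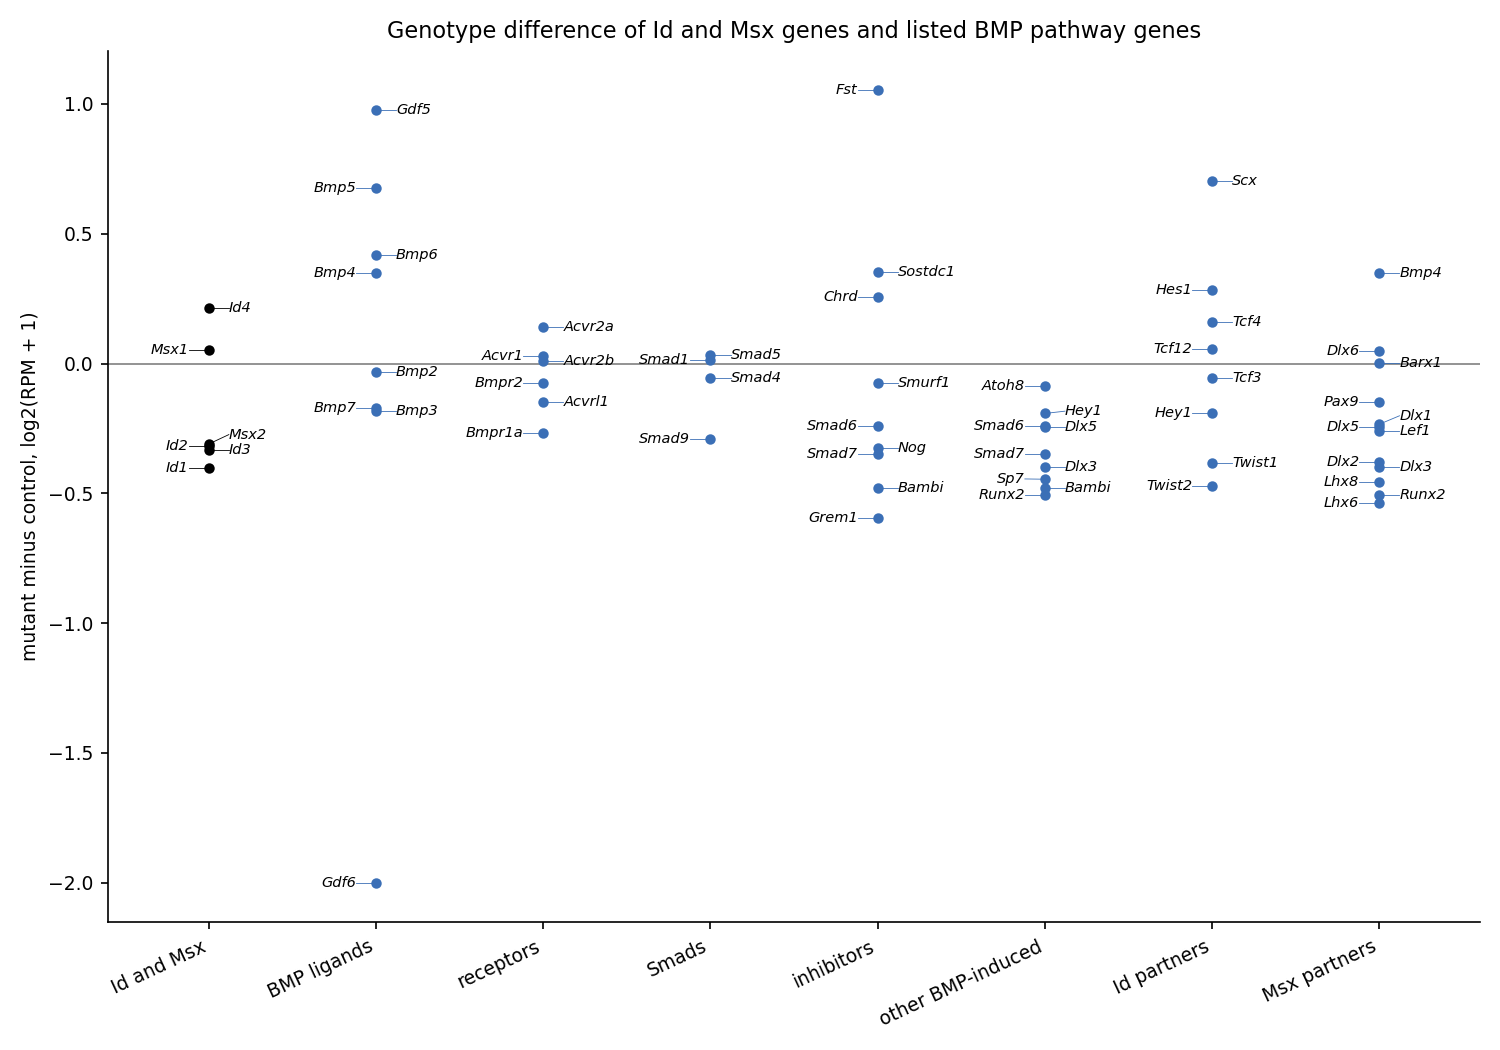
Difference in mean level between genotypes (y axis, mutant minus control, as log2(RPM + 1)) for the 6 Id and Msx genes and the tested genes of 7 BMP pathway and partner lists (x axis), 1 point per gene. All 9 points of the other BMP-induced genes lie below 0, while the ligands spread from -2.00 (Gdf6) to 0.98 (Gdf5).

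The bHLH factors that Id proteins bind, or that share those partners, had 4 lower and 4 higher means of 8 (median 0.00) and none with an unadjusted p under 0.05. The E proteins Tcf3, Tcf4 and Tcf12 differed by -0.06, 0.16 and 0.06. Twist1, a bHLH factor of cranial mesenchyme, was at 68.6, 61.8 and 60.06 RPM in controls against 41.4, 45.4 and 60.01 RPM in mutants (log2 difference -0.38, SE 0.17, limma, unadjusted p = 0.0533). Its groups did not overlap, but control 3 and mutant 3 lay within counting error of each other (0.0902% apart, counting error 3.59%).

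The 12 factors that act with or under Msx genes in tooth mesenchyme had 9 lower and 3 higher means (median -0.25), and 2 of 12 had an unadjusted p under 0.05, both lower in mutants. Over all tested genes 0.692% met that p and were lower. Lhx8, a LIM homeobox gene of jaw mesenchyme, was at 19.3, 19.5 and 22.6 RPM in controls against 13.4, 14.6 and 16.0 RPM in mutants (log2 difference -0.46, SE 0.15, limma, unadjusted p = 0.0180, adjusted p = 1.00), and its groups did not overlap. Its relative Lhx6 was at 40.8, 34.9 and 46.6 RPM in controls against 20.6, 28.2 and 35.8 RPM in mutants (log2 difference -0.54, SE 0.22, limma, unadjusted p = 0.0431, adjusted p = 1.00), and its groups overlapped. The unadjusted p of Lhx8 was 0.0518 (limma) without control 3 and the same without mutant 2, and that of Lhx6 was 0.0797 or more without control 1, control 3, mutant 1 or mutant 2. The unadjusted p of Lhx6 was also 0.0696 with the enamel epithelium covariate, 0.0827 with the endothelium covariate, 0.0567 with no filter and 0.0518 without the trend (limma). Mutant 3 was the highest mutant library for Twist1, Lhx6 and Lhx8, whereas it was among the lowest for Id1, Id3 and Msx2.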

How the data were processed

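The 6 poly(A) libraries were run on an Illumina NextSeq system, per the labels' protocols. Reads were mapped with TopHat2 to mm10, per the submitters' processing notes. The counting program and annotation are not given in the sources used here. The authors deposited 1 table of log2 values, titled as normalized RPKM. Raised as powers of 2, 99.98% of the values of genes with reads were whole multiples (within 0.05 read) of 1 step common to every gene in the column, so they were treated as RPM without length correction. Genes without reads hold 0.9 of 1 read.

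Genes that averaged 1 RPM or more entered a limma 3.58.1 fit of log2(RPM + 1) (R 4.3.3, trended eBayes, two-sided, Benjamini-Hochberg over 14444 genes). The log2(RPM + 1) scale understates the change of low genes. The procedure was also run on simulated reads with known changes. These had no litter or tissue differences, so that run does not show how the procedure performs on these libraries. Litter was tested with genotype in the model, and the difference between litters as an interaction. With no statement that libraries are separate animals, p-values measure the spread between libraries. No 2 libraries agreed within counting error.

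The members, gene lists and tests were chosen with earlier results of these data known. Named list genes had an unadjusted p under 0.05 or groups that did not overlap, or were the 2 largest differences of a list. Bmp4, Atoh8, Smad6, Dlx3, Sp7, the E proteins, Evi5, Bglap, Bglap2 and the single odontoblast and enamel markers were named after their values were seen. Planned correlations between members and with marker lists are not given, since the libraries fell into separate sets for Id1 and Msx2. Alternatives were pseudocounts, filters, scalings, limma voom, blocks, covariates and leaving out each library.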

Additional observations from a re-analysis of the deposited data

How the results depend on the processing

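No adjusted p of the 6 genes was under 0.05 for genotype under any of 21 alternatives. The direction was kept under all 21 for Id1 (-0.62 to -0.16 on the log2 scale), Id2 (-0.53 to -0.18), Id3 (-0.60 to -0.04), Id4 (0.10 to 0.36) and Msx2 (-0.56 to -0.12). Msx1 reversed under median-of-ratios scaling (-0.0057), in litter 1 alone (-0.17) and with libraries left out (-0.44 to 0.42). Leaving out each library gave 0 to 2 of the 6 genes with an unadjusted p under 0.05 and 0 to 2 whose groups did not overlap. The litter difference reversed for Msx2 under median-of-ratios scaling (-0.092), and with libraries left out it ran from -0.27 to 0.31 for Msx2, -0.37 to 0.36 for Id1, -0.23 to 0.10 for Id2, -0.80 to 0.077 for Id3 and -1.49 to -0.83 for Msx1. It passed an adjusted p under 0.05 for Msx1 only without mutant 1 (-1.38). The causes were not tested. The sign for Msx1 between genotypes is thus unsettled. Median-of-ratios scaling put the median of all genes at -0.07 in place of -0.01.

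Over all tested genes the count with an unadjusted p under 0.05 was 152 and ranged from 68 (without mutant 1) to 524 (replicate block). It was 334 without a filter, where all 25899 genes were tested in place of 14444. It was 319 in litter 1 alone, 293 with litter as a block, 325 without control 1, 240.0 without control 3 and 261 without mutant 2. Replicate numbers stand in the column names only. Same-numbered libraries deviated together for numbers 2 (r = 0.75) and 3 (r = 0.50) but not for 1 (r = -0.03). The libraries numbered 3 are also those of litter 2, so these values cannot settle whether the numbers pair libraries. With the replicate block the unadjusted p was 0.0655 for Id1, 0.0586 for Id2, 0.190 for Id3, 0.213 for Id4, 0.789 for Msx1 and 0.139 for Msx2 (limma), with the differences -0.40, -0.32, -0.33, 0.21, 0.05 and -0.31 as without it. With that block 3 of the 9 other BMP-induced genes (Smad7, Dlx3 and Sp7) had an unadjusted p under 0.05. Each of the 6 genes had at least 1057 reads in each library, so counting error was small beside the spread between libraries.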
